A study of Oryza sativa Japonica Group with 32 samples.

Results

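Basic leucine zipper (bZIP) proteins are transcription factors that pair through a leucine zipper and grip DNA, usually at motifs with an ACGT core, with the basic stretch that precedes it. In plants they relay abscisic acid (ABA), light, defence and stress signals, and in cereal grain they switch on storage protein genes. Which partners can form depends on which members are present together, so the level of each gene in each tissue is the first thing to know about the family. The genes described here were the 64 whose gene symbol in the deposited expression table begins with OsbZIP, out of 38978 genes in that table. They were chosen by this symbol. Several well known rice bZIP genes carry another symbol in the table (BZIP23, TRAB1 or Lip19, for example) and are therefore not among the 64; 15 such genes were kept as a separate list.

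The study sampled 8 tissues of the japonica cultivar Nipponbare and applied m6A-SAC-seq to their polyA RNA, a method that locates N6-methyladenosine (m6A), adenosine carrying a methyl group, base by base. The tissues were embryo, endosperm and flag leaf at 10 days after anthesis, panicle at heading, seedlings at 2 weeks, seedlings at 8 days, and plumules (the young shoots of germinating seeds, at 3 days) grown in light or in the dark. The labels name no allele or agent in any group; tissue, age and the light regime of the plumules set the groups apart. Each tissue had 2 libraries treated with the enzyme that reads m6A and 2 untreated input libraries, 32 in all, from what the study calls biological replicates. Transcript levels came from the 16 input libraries, as TPM, a transcript abundance normalised for library size and gene length, so that levels can be compared between genes.

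Read totals worked out from the TPM values summed to between 12856679 and 15516038 per library, and the 2 libraries of a tissue correlated at r = 0.991 to 0.996 on the log2(TPM + 1) scale across genes, which are not independent replicates. Tissue marker genes were checked by symbol. The 3 of 4 embryo markers found summed to 30600 and 26200 TPM in embryo libraries and to 6510 and 7690 TPM in endosperm libraries, and the 3 of 5 endosperm markers to 6140 and 6320 TPM in embryo libraries and to 75300 and 69100 TPM in endosperm libraries. The endosperm libraries also held 1330 and 1630 TPM of the 3 of 4 leaf markers found. OsMADS7, a floral organ gene and the only 1 of 4 panicle markers found, was at 247 and 227 TPM in endosperm. It was at 279 and 296 TPM in panicle. Each grain tissue thus held transcripts listed as markers of other tissues, and whether it makes them itself was not tested. The same leaf markers stood at 1530 and 1350 TPM in light plumules against 2030 and 1960 TPM in dark plumules. In bulk tissue, fewer cells of a type and less RNA per cell cannot be told apart.

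All but 4 of the 64 genes (OsbZIP22, OsbZIP43, OsbZIP54 and OsbZIP57) reached 1 TPM in at least 2 libraries and were tested. A mean of 20 TPM or more was reached in some tissue by 32 genes, whereas 12 stayed below 5 TPM everywhere. Of the 64, 30 were at 1 TPM or more in every tissue, and 29 were listed at 0 in at least 1 library. All 60 tested genes differed between tissues by limma's moderated F test at an adjusted p below 0.05, but so did 98.6% of all genes tested. In 45 of the 60, both libraries of the highest tissue lay above both libraries of the next; in the other 15 the highest and second tissues overlapped. Over all genes tested the highest tissue stood apart in this way in 72%.

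**Figure D1:**
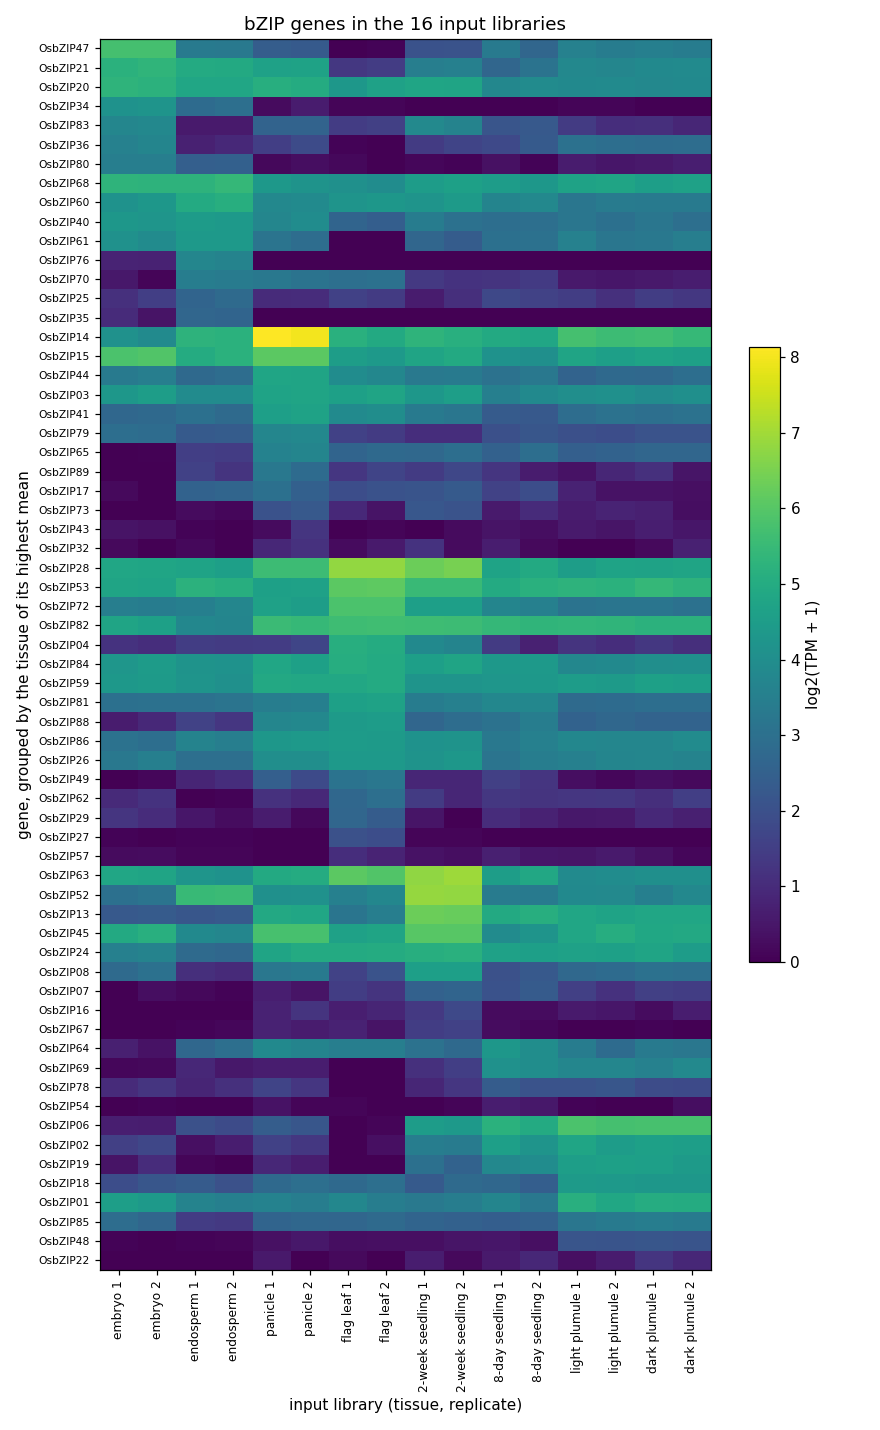
Colour gives log2(TPM + 1) of each of the 64 bZIP genes (rows, grouped by the tissue of their highest mean) in each of the 16 input libraries (columns, 2 per tissue). OsbZIP14 in panicle is the brightest cell pair, and several rows are dark everywhere except in grain, in flag leaf or in plumules and seedlings.

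Summed over the 64 genes, bZIP transcripts were most abundant in panicle (1070 and 1030 TPM) and in 2-week seedlings (1030 and 1050 TPM) and least abundant in endosperm (592 and 591 TPM) and 8-day seedlings (596 and 605 TPM). Flag leaf held 858 TPM in both libraries, and embryo 658 and 672 TPM. Light plumules held 705 and 684 TPM and dark plumules 703 and 690 TPM. Flag leaf was the tissue of highest level for 15 of the 60 tested genes (25.0%, against 21.6% of all genes tested), panicle for 11 (18.3%, against 26.0%), 2-week seedling for 9 (15.0%, against 11.7%), endosperm for 8 (13.3%, against 6.08%) and embryo for 7 (11.7%, against 9.58%). The 3 remaining tissues had 10 between them: 3 in 8-day seedlings (5.0%, against 8.04%), 4 in light plumules (6.67%, against 7.29%) and 3 in dark plumules (5.0%, against 9.68%).

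The most abundant gene changed from tissue to tissue. It was OsbZIP15 in embryo (57.8 TPM on average), OsbZIP52 in endosperm (45 TPM), OsbZIP14 in panicle (267 TPM), OsbZIP28 in flag leaf (112 TPM), OsbZIP63 in 2-week seedlings (116 TPM) and OsbZIP82 in 8-day seedlings (40.6 TPM). OsbZIP06 led in light plumules (54.1 TPM) and in dark plumules (53.9 TPM). OsbZIP14 stood out by size: it had 281 and 252 TPM in panicle and between 13.9 and 51.9 TPM in the 14 other libraries.

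The TGA factors, which bind as-1-type elements and work with NPR1-type regulators in salicylic acid and redox signalling, were represented by 7 of the 8 listed symbols, and they did not share a pattern. OsbZIP28, studied in rice defence, had 113 and 111 TPM in flag leaf and 78.6 and 86.8 TPM in 2-week seedlings. Its other tissues lay between 22.0 and 46.7 TPM. OsbZIP63, also studied in rice defence, had the opposite order, with 66.5 and 60 TPM in flag leaf and 110 and 122 TPM in 2-week seedlings. OsbZIP03 (rTGA2.3) varied little, between 10.4 and 26.1 TPM over all 16 libraries. OsbZIP47, a relative of the Arabidopsis floral meristem gene PERIANTHIA, was highest in embryo, at 52.7 and 52.2 TPM. It had 9.05 and 8.68 TPM in endosperm and 0 and 0.0619 TPM in flag leaf. OsbZIP79, which acts on phytoalexin (antimicrobial diterpenoid) production in rice, was highest in panicle at 12.4 and 13 TPM. OsbZIP49, known for shoot gravitropism and tiller angle, was highest in flag leaf at 7.63 and 8.35 TPM and lowest in embryo at 0 and 0.0958 TPM. OsbZIP08 was highest in 2-week seedlings at 23.1 and 22.9 TPM.

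Relatives of maize Opaque2, itself an activator of seed storage protein genes, had 3 of 4 listed symbols among the 64. None of the 3 was a grain-only gene. OsbZIP15 (RISBZ4) had 67.6 and 67.8 TPM in panicle, 56.0 and 59.6 TPM in embryo and 30.9 and 35.4 TPM in endosperm. OsbZIP20 (RISBZ3, also called RITA1) had 38.4 and 36.6 TPM in embryo and 27.0 and 27.2 TPM in endosperm, and at least 12.7 TPM in every other library. OsbZIP52 (RISBZ5), also studied for cold and drought responses, was highest in 2-week seedlings at 114 and 113 TPM, with 43.8 and 46.1 TPM in endosperm and at most 16.3 TPM elsewhere.

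The HY5-like genes, relatives of the Arabidopsis factor that promotes growth in light, were all 3 highest in plumules, with light and dark close together. OsbZIP48 had 3.40 and 3.33 TPM in light plumules and 3.56 and 3.37 TPM in dark plumules, against 0.432 TPM or less in every other library. OsbZIP18 had 20.6 and 19.5 TPM in light plumules and 18.9 and 18.6 TPM in dark plumules, and at most 6.92 TPM elsewhere. OsbZIP01 had 34.1 and 28 TPM in light plumules and 31.7 and 30.9 TPM in dark plumules, with embryo next at 22.5 and 19.7 TPM.

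Of the ABA-responsive group, which binds ABA response elements in drought-induced promoters, only OsbZIP62 and OsbZIP72 of 7 listed symbols were among the 64, and flag leaf was the highest tissue of both. OsbZIP72 had 55.7 and 56.2 TPM in flag leaf and between 7.23 and 24.2 TPM in all other libraries. OsbZIP62 had 5.56 and 6.77 TPM in flag leaf and at most 1.87 TPM elsewhere. OsbZIP60, a membrane-anchored factor of the endoplasmic reticulum stress response, was highest in endosperm at 30.7 and 33 TPM and lowest in light plumules at 8.10 and 9.55 TPM. It was the only 1 of 4 listed symbols of that response among the 64. Under other symbols, BZIP50 was also highest in endosperm, at a mean of 111 TPM. BZIP39 went the other way, with its highest mean in flag leaf (49.3 TPM) and its lowest in endosperm (11.5 TPM). OsbZIP69, an FD-like factor of the kind that pairs with florigen, had 16.3 and 15.0 TPM in 8-day seedlings, between 10.9 and 13.1 TPM in plumules, and 0 in both flag leaf libraries. Only this 1 of 3 listed FD-like symbols was among the 64. OsbZIP73, studied for cold tolerance, stayed at or below 3.82 TPM. Of 3 listed cold and salt symbols it alone was among the 64. BZIP71 of that list, under another symbol, averaged 177 TPM in flag leaf.

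Some genes were detected in grain and almost nowhere else. OsbZIP76, an imprinted endosperm gene whose product partners NF-YB1, had 0.772 and 0.729 TPM in embryo and 12.4 and 11.4 TPM in endosperm, and was listed at 0 in the other 12 libraries. OsbZIP35 followed it at lower level, with 0.992 and 0.354 TPM in embryo, 5.40 and 5.21 TPM in endosperm and 0 in the other 12 libraries. OsbZIP34 leaned to the embryo, with 16.8 and 17.7 TPM there and 6.14 and 6.90 TPM in endosperm, and did not pass 0.526 TPM outside grain. OsbZIP80 had 10.1 and 10.2 TPM in embryo and 4.54 and 4.62 TPM in endosperm, and at most 0.617 TPM elsewhere.

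A further set was high in plumules and 8-day seedlings and at or near 0 in flag leaf. OsbZIP06 had 55.5 and 52.8 TPM in light plumules, 54.1 and 53.6 TPM in dark plumules, 35.5 and 30.8 TPM in 8-day seedlings and 21.8 and 19.7 TPM in 2-week seedlings, and 0 and 0.0873 TPM in flag leaf. OsbZIP02 ran from 17.6 to 26.5 TPM over plumules and 8-day seedlings and had 0 and 0.261 TPM in flag leaf. OsbZIP19 ran from 13 to 23.5 TPM over the same libraries and was at 0 in flag leaf. OsbZIP04 had the opposite order, with 33.4 and 30.9 TPM in flag leaf, 13.6 and 11.7 TPM in 2-week seedlings and at most 2.27 TPM in all other libraries.

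**Figure D2:**
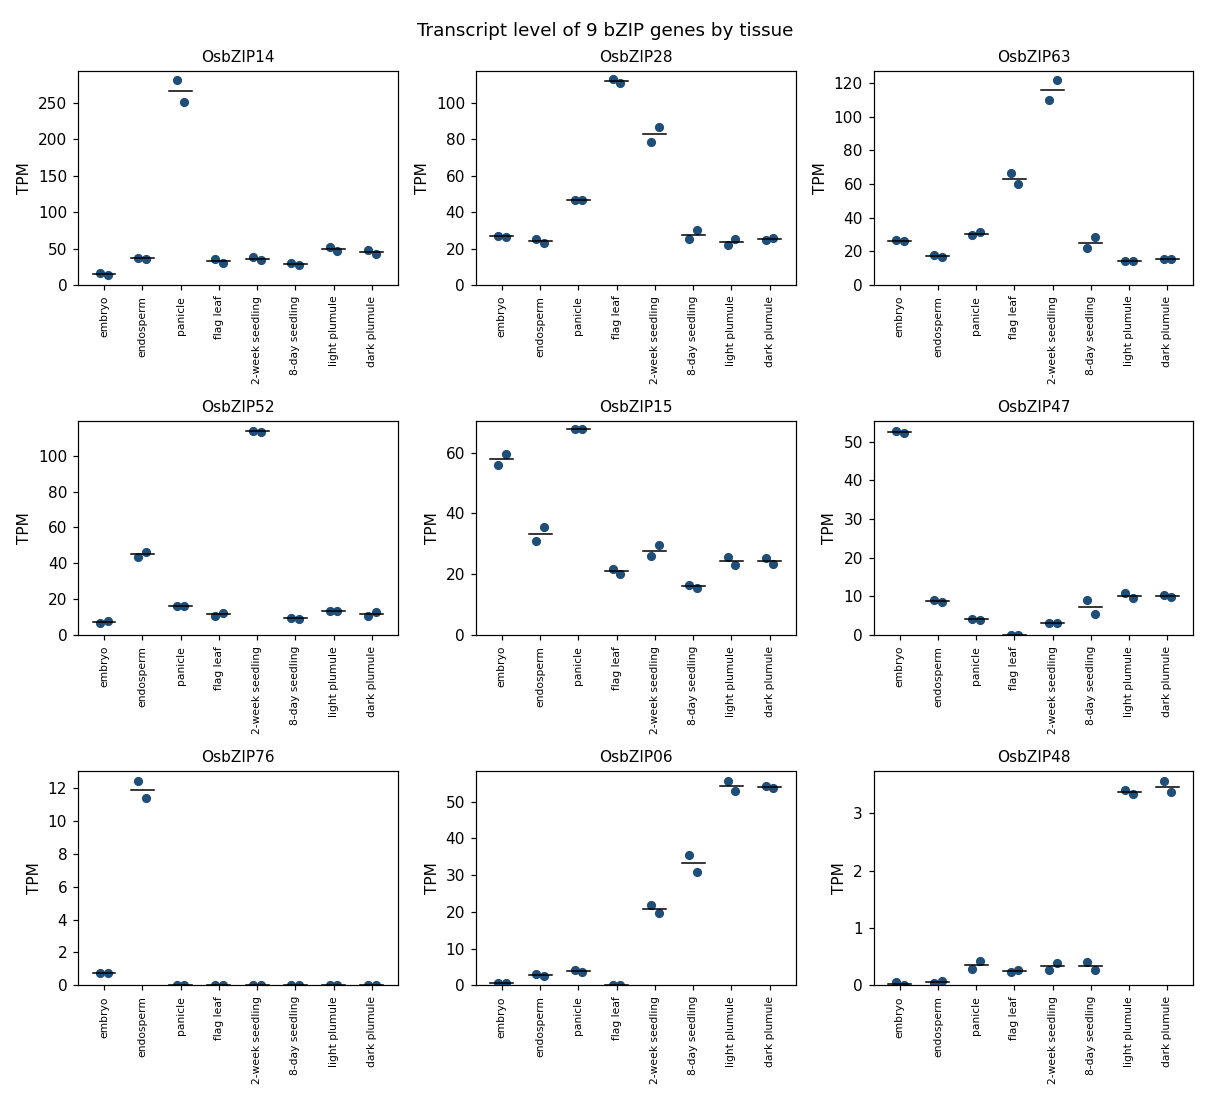
Points give TPM of the 2 input libraries of each tissue and the short line their mean, for 9 bZIP genes, with a separate linear axis from 0 for each gene. OsbZIP14 peaks in panicle, OsbZIP28 in flag leaf, OsbZIP63 and OsbZIP52 in 2-week seedlings, OsbZIP47 in embryo, OsbZIP76 in endosperm, and OsbZIP06 and OsbZIP48 in plumules of both light regimes.

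Adjacent or matched tissues were compared with limma on log2(TPM + 1) over 28562 genes, with all 16 libraries in the fit. A fold change on this scale understates the change of low genes, so TPM values or a TPM ratio are given beside many of them. Where only the log2 value is given, this limit holds. Flag leaf and 2-week seedling libraries serve in 2 comparisons each. The p-values set each difference against the spread between the 2 libraries of a tissue, pooled over all 16 libraries. They do not rest on the libraries of the compared tissues alone.

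Between light and dark plumules no bZIP gene passed the test: 0 of 60 passed, against 0.0105% of all genes (3 genes), and 1 of the 60 had an unadjusted p below 0.05, as did 6.52% of all genes. edgeR on the recovered reads called 41 genes and again 0 of the 59 bZIP genes it kept, with 0 below an unadjusted p of 0.05, against 5.89% of all genes. The smallest p belonged to OsbZIP84, which had a mean of 13.1 ± 0.536 TPM in light and 15.6 ± 0.180 TPM in dark plumules (SD, n = 2 each). Its log2 fold change was -0.23 ± 0.10 (SE; adjusted p = 0.671). The largest absolute log2 fold change among the 60 was 0.47, in OsbZIP32, a gene at or near 0 in plumules. The leaf markers were also no higher in light, as given above.

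In embryo, the TGA-type genes OsbZIP47 and OsbZIP08 were higher than in endosperm, and OsbZIP52 and OsbZIP76 were lower. OsTGA10, a TGA-type gene under another symbol, was also lower. In all, 24 of 60 bZIP genes were higher in embryo (44.6% of all genes were) and 18 were lower (24.4% of all genes were), and the median log2 fold change of the 60 was 0.00 against 0.20 over all genes. TPM values share a fixed total, of which the prolamin gene Prol-01 alone held 6000 TPM in embryo and 70000 TPM in endosperm on average. With median-ratio scaling the median over all genes moved to -0.03, the bZIP counts became 16 higher and 29 lower of 59, and those of all genes 31.5% higher and 36.7% lower. Both libraries of each grain tissue also held markers of the other, as given above, and the part of this in the differences was not tested.

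OsbZIP83 had 12.3 and 13 TPM in embryo against 0.501 and 0.494 TPM in endosperm, a log2 fold change of 3.19 ± 0.13 (SE; adjusted p = 7.8e-11). OsbZIP36 had 10.9 and 12.1 TPM in embryo against 0.677 and 0.919 TPM in endosperm (log2 2.80 ± 0.17). OsbZIP47 was 5.91-fold higher in embryo by mean TPM (log2 2.44 ± 0.16, adjusted p = 1.05e-08), and its embryo libraries lay above every other library for this gene. OsbZIP08 had 6.06 and 7.21 TPM in embryo against 1.14 and 0.953 TPM in endosperm (log2 1.90 ± 0.15). OsbZIP85 had 6.48 and 5.46 TPM in embryo against 1.7 and 1.54 TPM in endosperm (log2 1.41 ± 0.11).

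On the lower side, OsbZIP70 had 0.451 and 0.0877 TPM in embryo against 9.81 and 9.53 TPM in endosperm (log2 -3.09 ± 0.14, adjusted p = 1.86e-10). OsbZIP76 was 15.9-fold lower in embryo (log2 -2.88 ± 0.08, adjusted p = 2.96e-12), and OsbZIP52 was 6.06-fold lower (log2 -2.45 ± 0.10). OsbZIP17 rested on 2 reads in embryo against 144 in endosperm, a ratio of 65.0 with an exact 95% interval of 17.7 to 542 that covers counting error only. OsbZIP64 had 0.641 and 0.320 TPM in embryo against 5.58 and 6.77 TPM in endosperm. Smaller differences depended on the scale: OsbZIP20, higher in embryo by 0.45 ± 0.10 on TPM, stood at -0.03 with median-ratio scaling (adjusted p = 0.846), and OsbZIP21, OsbZIP26 and OsbZIP59 turned direction likewise. The TGA list counted 5 higher and 1 lower of 7 on TPM. However, OsbZIP03, OsbZIP63 and OsbZIP79 lost their call under that scaling, at 0.04, 0.12 and 0.16. OsbZIP28, at 0.13 on TPM, came to -0.35 (adjusted p = 0.000738). Of the TGA genes under other symbols, OsTGA10 was lower (log2 -1.90 ± 0.12, and -2.39 with median-ratio scaling). OsTGAP1 was higher on TPM (0.57 ± 0.10) but lost its call with that scaling (0.20, adjusted p = 0.0713).

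In 2-week seedlings, the defence-linked OsbZIP63 and OsbZIP28 and the Opaque2-like OsbZIP52 were several-fold higher than in 8-day seedlings. The FD-like OsbZIP69 was lower, whereas BZIP77, an FD-like gene under another symbol, did not pass (log2 -0.10 ± 0.14). Of the 60, 26 were higher at 2 weeks (35.4% of all genes were) and 15 lower (31.6% of all genes were), with a median log2 fold change of 0.19 against 0.01 over all genes. OsbZIP52 had 114 and 113 TPM at 2 weeks against 9.44 and 9.26 TPM at 8 days (log2 3.47 ± 0.10, adjusted p = 6.07e-12). OsbZIP04 had 13.6 and 11.7 TPM against 1.66 and 0.671 TPM (log2 2.69 ± 0.19). OsbZIP08 was 6.71-fold, OsbZIP63 was 4.60-fold and OsbZIP45 was 4.03-fold higher at 2 weeks. OsbZIP28 had 78.6 and 86.8 TPM at 2 weeks against 25.4 and 30.0 TPM at 8 days (log2 1.55 ± 0.09, adjusted p = 6.87e-09).

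OsbZIP69 had 1.17 and 1.82 TPM at 2 weeks against 16.3 and 15.0 TPM at 8 days, the widest fall of this comparison among the 60 (log2 -2.75 ± 0.15, adjusted p = 2.65e-09). OsbZIP64, OsbZIP19, OsbZIP02 and OsbZIP47 were between 2.09-fold and 2.56-fold lower at 2 weeks, and their libraries did not overlap. The call of OsbZIP02 was lost with a pseudocount of 0.1 (log2 -1.05, adjusted p = 0.0636). All 3 Opaque2-like genes were higher, 4 TGA genes were higher and 3 lower, and none of the 3 HY5-like genes passed: their log2 fold changes were -0.12, -0.03 and -0.01. Median-ratio scaling gave 21 higher (27.4% of all genes) and 16 lower (39.2% of all genes) of 59, with medians of 0.00 for the bZIP genes and -0.11 over all genes, and OsbZIP82 was the only called gene that turned direction.

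In flag leaf, the ABA-type OsbZIP62 and OsbZIP72 and the gravitropism gene OsbZIP49 were higher than in 2-week seedlings, whereas OsbZIP06 and OsbZIP52 were lower. Of the ABA-type genes under other symbols, BZIP23 was higher (log2 1.68 ± 0.11) and BZIP46 lower (-1.25 ± 0.09), while BZIP12 (-0.13 ± 0.12) and TRAB1 (-0.01 ± 0.14) did not pass. The counts were 19 higher (32.9% of all genes were) and 23 lower (33.8% of all genes were) of 60. OsbZIP49 had 7.63 and 8.35 TPM in flag leaf against 0.818 and 0.824 TPM in 2-week seedlings (log2 2.30 ± 0.17, adjusted p = 4.44e-08). OsbZIP70 was 4.93-fold, OsbZIP62 was 4.89-fold, OsbZIP88 was 3.49-fold and OsbZIP04 was 2.53-fold higher. OsbZIP72 had 55.7 and 56.2 TPM in flag leaf against 22.9 and 23 TPM in 2-week seedlings (log2 1.25 ± 0.10).

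OsbZIP06 fell to 1 read over both flag leaf libraries, against 461 reads in 2-week seedlings, a ratio of 453 whose exact 95% counting interval ran from 80.9 to 17900. OsbZIP19 had no read in flag leaf and was at least 17.6-fold lower there, with 3 reads per library as the floor. OsbZIP02 had 0 and 0.261 TPM in flag leaf against 9.85 and 9.54 TPM in 2-week seedlings. OsbZIP52 had 10.8 and 12.5 TPM in flag leaf against 114 and 113 TPM (log2 -3.18 ± 0.10, adjusted p = 3.95e-12), and OsbZIP13 had 7.98 and 10.1 TPM against 78.1 and 75.7 TPM (log2 -2.96 ± 0.10). All 3 Opaque2-like genes were lower in flag leaf, and the TGA genes split, 3 higher and 3 lower.

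In panicle, OsbZIP14 and the Opaque2-like OsbZIP15 were higher than in flag leaf, and both ABA-type genes among the 64 were lower. Of those under other symbols, BZIP23 (log2 -0.76 ± 0.11) and BZIP12 (-0.65 ± 0.12) were lower and BZIP46 (1.95 ± 0.09) was higher. TRAB1 was higher on TPM (0.40 ± 0.14, adjusted p = 0.0176) but not with median-ratio scaling (0.18, adjusted p = 0.326). The counts were 28 higher (48.9% of all genes were) and 16 lower (26.2% of all genes were) of 60, with a median log2 fold change of 0.20 against 0.30 over all genes. With median-ratio scaling these became 24 higher (41.4% of all genes) and 21 lower (31.9% of all genes) of 59, and the median over all genes 0.11. OsbZIP21 had 24.2 and 25.0 TPM in panicle against 1.48 and 1.75 TPM in flag leaf (log2 3.30 ± 0.12, adjusted p = 7.99e-12). OsbZIP14 had 281 and 252 TPM against 35.3 and 29.7 TPM (log2 3.0 ± 0.11, adjusted p = 1.68e-11). OsbZIP61 had 199 reads in panicle and none in flag leaf, at least 32.5-fold higher against a floor of 3 reads per library. OsbZIP79 was 6.98-fold and OsbZIP15 was 3.22-fold higher in panicle.

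OsbZIP04 had 1.73 and 2.27 TPM in panicle against 33.4 and 30.9 TPM in flag leaf (log2 -3.47 ± 0.19, adjusted p = 6.91e-10). OsbZIP62 was 5.65-fold, OsbZIP53 was 2.85-fold, OsbZIP72 was 2.41-fold and OsbZIP28 was 2.40-fold lower in panicle, with no overlap between libraries. All 3 Opaque2-like genes with an OsbZIP symbol were higher in panicle. Of these, OsbZIP52, at 0.44 on TPM, came to 0.22 with median-ratio scaling (adjusted p = 0.0518). REB, an Opaque2-like gene under another symbol, did not pass (log2 0.08 ± 0.12, and -0.13 with median-ratio scaling). REB did follow the others in 2-week against 8-day seedlings (1.49 ± 0.12) and in flag leaf against 2-week seedlings (-1.47 ± 0.12). The 3 HY5-like genes had log2 fold changes of -0.09, -0.01 and 0.12 and did not pass.

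**Figure D3:**
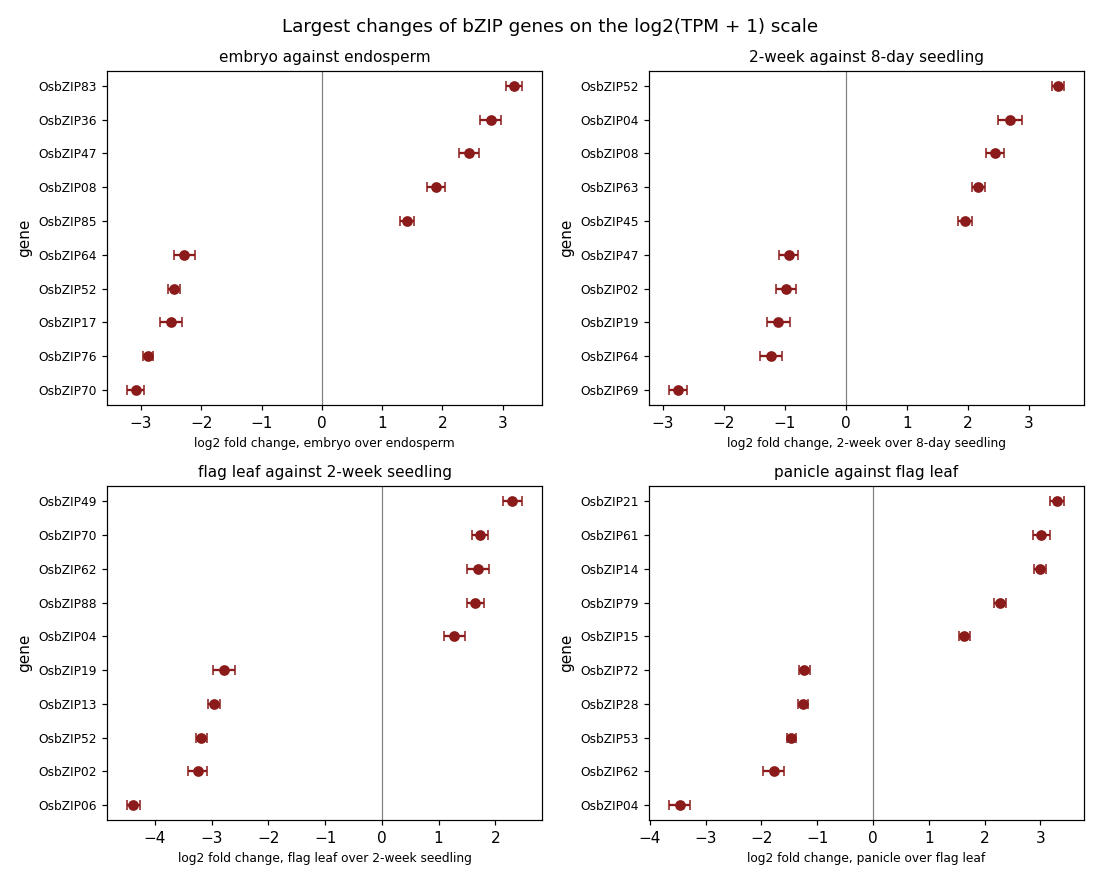
Points give the limma log2 fold change on the log2(TPM + 1) scale and bars its standard error, for the 5 bZIP genes with the largest rise and the 5 with the largest fall in each of 4 tissue comparisons, among those past the threshold, with libraries apart and at least 5 TPM in either tissue; each axis runs with the first-named tissue over the second. OsbZIP06 in flag leaf (-4.38) and OsbZIP52 in 2-week seedlings (3.47) lie farthest out in their panels.

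The 15 rice bZIP genes with other symbols included some of higher level than any of the 64. Lip19, a low-temperature-induced bZIP gene, averaged 729 TPM in 2-week seedlings, and OsOBF1, whose product pairs with LIP19, averaged 501 TPM in panicle. Of the 13 that were tested, 0 changed between light and dark plumules. Between embryo and endosperm 5 were higher and 3 lower, between 2-week and 8-day seedlings 8 were higher and 3 lower, between flag leaf and 2-week seedlings 5 were higher and 5 lower, and between panicle and flag leaf 5 were higher and 6 lower, beside the shares of all genes given above. With median-ratio scaling the embryo against endosperm counts became 3 higher and 7 lower, and those of 2-week against 8-day seedlings 5 and 4. Those of flag leaf against 2-week seedlings became 3 and 5, and those of panicle against flag leaf 4 and 6. Over all 28438 genes tested with that scaling, flag leaf against 2-week seedlings gave 8803 higher and 10017 lower.

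The same genes were then read for m6A in the treated libraries. The deposited site table gives, for each site and tissue, 1 m6A fraction (the calibrated share of transcripts methylated at that base), 1 read depth and 1 detection flag, with replicates already combined, so these values have no replicate error and were not tested. Here a site counts in a tissue where it was flagged at a depth of 20 or more. In plants as in animals, m6A is written mostly near the stop codon and in the 3′ UTR, in RAC contexts (R is A or G), with GAT contexts also common in this table. The 5-base contexts most often listed in the 64 genes are shown to let the reader see what was methylated, 5′ to 3′ along the transcript with the methylated adenosine in capitals.
Most frequent context: agAca
Next context: agAtg
Next again: tgAca
Last of these: agAcg
They were listed at 33, 30, 26 and 23 sites. The mean fraction over counted site and tissue pairs was 0.439 at agAca and 0.182 at agAtg, against 0.394 and 0.183 over all genes.

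Of the 64 bZIP genes, 51 had 417 listed sites (8.18 per gene, against 9.11 for all genes with a site), and 48 had a counted site. Sites lay in the 3′ UTR more often than over all genes (223 sites, 53.5%, against 32.0%), and 141 sites in coding sequence (33.8%, against 35.0%), while 15 were in the 5′ UTR and 12 in introns. The table put 28% of all sites but 6.24% of the bZIP sites in none of these regions. Among sites in one of them, a choice made after seeing the data, the 3′ UTR held 57.0% of bZIP sites against 44.5% over all genes, and coding sequence 36.1% against 48.6%. RAC contexts made up 57.8% (52.1% over all genes) and GAT contexts 19.2% (21.0%). The share of genes with a listed site was larger at higher levels. All 15 bZIP genes with a mean of 20 TPM or more over the tissues had a site (96.5% of all such genes), as did 21 of 23 at 5 to 20 TPM (91.3%, against 92.2%), 13 of 17 at 1 to 5 TPM (76.5%, against 62.7%) and 2 of 9 below 1 TPM (22.2%, against 7.74%). One of these, OsbZIP54, had site depths of 24 to 98 at an input level near 0, and the source of those reads was not tested. Without it, likewise chosen after seeing the data, 1 of 8 had a site (12.5%). OsbZIP19, OsbZIP62 and OsbZIP69 were among the 13 genes with no listed site.

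Counted sites per tissue numbered 132 in embryo, 131 in endosperm, 142 in panicle, 135 in flag leaf, 85 in 2-week seedlings, 115 in 8-day seedlings, 103 in light plumules and 105 in dark plumules. The median depth of these sites ran from 54 in dark plumules to 94 in flag leaf, and the part of depth in the numbers was not tested. Of the 417 sites, 186 (44.6%, against 45.6% over all genes) were counted in 1 tissue, and 29 (6.95%, against 7.27%) were flagged in all 8, or 28 without OsbZIP54. Of these 29, 26 were in the 3′ UTR (89.7%, against 67.3% over all genes). The mean fraction was higher in the 3′ UTR than in coding sequence in all 8 tissues, by 0.211 on average (0.154 in panicle to 0.292 in 2-week seedlings), against 0.198 over all genes (0.191 to 0.208). In 2-week seedlings the bZIP means were 0.552 over 61 sites in the 3′ UTR and 0.261 over 18 coding sites.

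**Figure D4:**
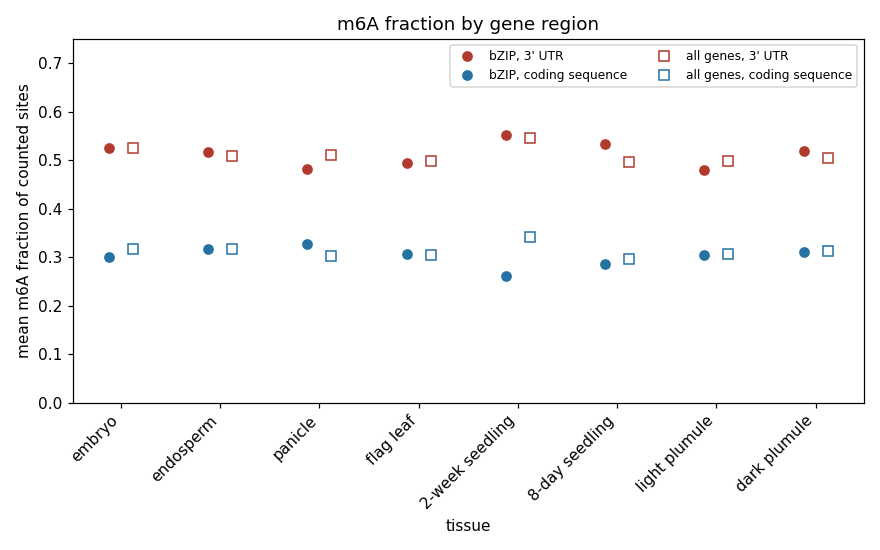
Points give the mean m6A fraction of counted sites in each tissue, in the 3′ UTR and in coding sequence, for the bZIP genes (filled circles) and for all genes (open squares); values are pooled over replicates and have no error. The 3′ UTR mean lies above the coding mean in every tissue, and the bZIP and all-gene points lie farthest apart in coding sequence of 2-week seedlings, at 0.261 and 0.342.

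Fractions also differed by context. Over the 8 tissues the mean fraction of counted bZIP sites lay between 0.422 and 0.523 in RAC contexts, between 0.241 and 0.341 in GAT contexts and between 0.475 and 0.712 in all other contexts. Sites of all genes had the same order, at 0.417 to 0.462, 0.235 to 0.285 and 0.581 to 0.644. The 29 sites flagged everywhere held 22 RAC and 7 GAT contexts and none of the others, which made up 7.42% of such sites over all genes. Among the 91 sites read to a depth of 50 or more in all 8 tissues, the median spread from lowest to highest fraction was 0.147, against 0.154 over all genes.

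The genes with most counted sites, summed over tissues, were OsbZIP45 (59), OsbZIP03 and OsbZIP63 (53 each), OsbZIP53 (51), OsbZIP84 (48) and OsbZIP26 (46). Sites are given by their IRGSP-1.0 position as the table lists it. OsbZIP63 had 4 sites flagged in all 8 tissues, near the end of the gene on the plus strand of chromosome 7, and their contexts are shown because these were the sites of this gene flagged throughout.
OsbZIP63, 29216631, coding sequence: agAca
OsbZIP63, 29216790, 3′ UTR: agAcg
OsbZIP63, 29216806, 3′ UTR: ggAct
OsbZIP63, 29216856, 3′ UTR: ggAct
The coding site had fractions of 0.97 in embryo, 1 in endosperm, 0.743 in panicle, 0.999 in flag leaf, 1 in 2-week seedlings, 0.657 in 8-day seedlings and 1 in plumules of both light regimes, at depths of 88 to 469. The site at 29216790 lay between 0.342 in flag leaf and 0.737 in dark plumules, that at 29216806 between 0.44 and 0.709, and that at 29216856 between 0.633 and 1 at depths of 9 to 91.

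OsbZIP84 also had 4 sites flagged in every tissue, all in its 3′ UTR on the plus strand of chromosome 12 and all between positions 3156667 and 3156735.
OsbZIP84, 3156667: aaAca
OsbZIP84, 3156687: tgAca
OsbZIP84, 3156723: ggAtt
OsbZIP84, 3156735: agAct
At the site at 3156687 the fraction was 0.989 in embryo, 0.61 in endosperm, 0.743 in panicle and 0.828 in flag leaf, and between 0.475 and 0.704 in the seedling and plumule samples, at depths of 21 to 68. Depths of this order leave single fractions loose, and their replicate spread is not known.

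Some sites had high fractions in every tissue. The 3′ UTR site of OsbZIP82 at position 6146544 of chromosome 11 (aaAcc) had fractions of 0.904 to 1 at depths of 112 to 335. The intronic site of OsbZIP03 at position 9929837 of chromosome 1 (gaAcc) had fractions of 0.703 to 1 at depths of 57 to 118. Fractions of 1 in all 8 tissues were listed for OsbZIP13 at position 1461294 of chromosome 2 (ggAca, depths 8 to 111) and for OsbZIP60 at position 26813185 of chromosome 7 (agAca, depths 9 to 47). At the other end, the 5′ UTR site of OsbZIP14 at position 1697069 of chromosome 2 (agAcg) kept to 0.104 to 0.154. Its depth was 1547 in panicle, where the gene was most abundant, and 76 to 329 elsewhere.

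Other sites varied. At position 4112620 of chromosome 2, in the 3′ UTR of OsbZIP15 (tgAct), the fraction was 0.342 in embryo, 0.294 in endosperm, 0.432 in panicle, 0.431 in flag leaf, 0.872 in 2-week seedlings, 0.553 in 8-day seedlings, 0.413 in light plumules and 0.671 in dark plumules, and the highest value had the lowest depth, 22. In the 3′ UTR of OsbZIP72, position 17193757 of chromosome 9 (agAca), the fraction was lowest in panicle at 0.302 and embryo at 0.338 and highest in 8-day seedlings at 0.75. In the 3′ UTR of OsbZIP45, position 28339462 of chromosome 5 (agAcc), it was 0.902 in flag leaf and 0.365 in endosperm. The 5′ UTR site of OsbZIP28 at position 11480302 of chromosome 3 (gaAcc) was flagged in 4 tissues and had 0.276 in flag leaf at depth 578 and 0.929 in dark plumules at depth 125.

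**Figure D5:**
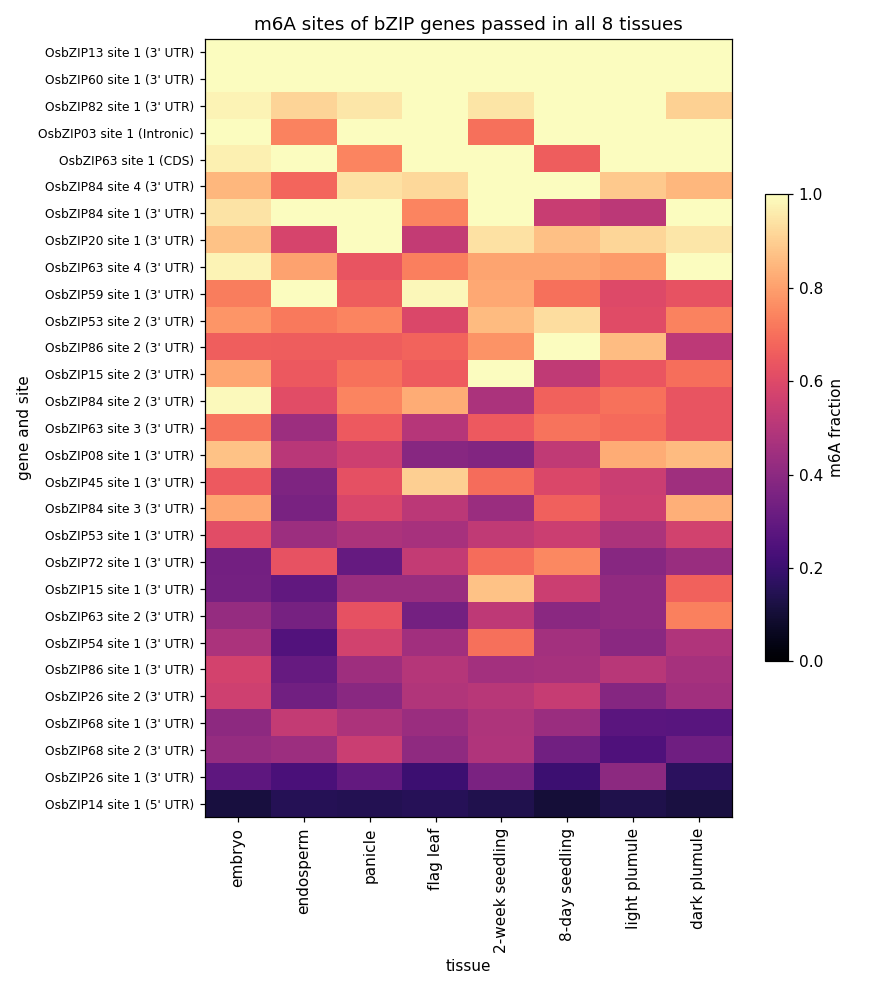
Colour gives the m6A fraction (0 to 1, pooled over replicates) of the 29 sites of bZIP genes flagged in all 8 tissues (rows, from highest to lowest mean; sites of a gene are numbered in table order) in each tissue (columns). The sites of OsbZIP13, OsbZIP60 and OsbZIP82 are near 1 throughout and that of OsbZIP14 is near 0.1 throughout.

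OsbZIP76 had 6 listed sites on chromosome 9, all flagged in endosperm alone, where depths were 16 to 65, and its depths in the other 7 tissues were 0 to 4, so their m6A was not measurable at this depth. Its endosperm fractions were 0.183 at the coding site and 0.47 to 1 at the 5 sites in the 3′ UTR. OsbZIP48 was counted in plumules only, at 2 sites in light and 3 in dark. OsbZIP47 had 6 counted sites in embryo, 2 in endosperm, 3 in dark plumules and 1 each in light plumules and 8-day seedlings.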

How the data were processed

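Groups and replicate numbers came from the sample titles. TPM per gene of the 16 input libraries was deposited by the authors, with a site table on the Ensembl IRGSP-1.0 genome made with an m6A-SAC-seq pipeline and spike-in calibration. Per tissue, the authors deposited an m6A fraction, a read depth as a whole-number count and a detection flag; the study counts sites shared by both replicates, and the sources used here do not give how their fractions and depths were combined, the aligner or the counter. The misspelled flag of 2-week seedlings was assigned by elimination. No per-sample column was left unmapped.

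Genes at 1 TPM or more in 2 or more libraries were tested with limma 3.58.1 (trend, robust; R 4.3.3) on log2(TPM + 1), tissue as factor, two-sided, with Benjamini-Hochberg adjustment over all genes tested. TPM times length gave whole reads (tolerance 0.1) for 100% of low values, on which edgeR 4.0.16 quasi-likelihood tests were run as an alternative. In a separate alternative, limma was run on TPM after median-ratio scaling. Other alternatives were a pseudocount of 0.1 in place of 1, no filter, leaving out each library, and, for sites, no depth minimum, a minimum of 50, a fraction of at least 0.1 and RAC sites only. The limma and edgeR fits were tried on simulated reads with known changes between light and dark plumules. The rule for counting sites was tried on made-up sites in separate code, which could not reveal an error in the m6A summaries. Python 3.11.15, numpy 2.4.6, pandas 2.3.3 and matplotlib 3.10.9 were used.

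Members, lists and rules were chosen with earlier results of these data known. Named genes were the role-list genes at 5 TPM or more, up to 5 per direction and comparison with the largest change, non-overlapping libraries and at least 5 TPM in either tissue, each tissue's most abundant gene, and the 6 genes with most counted sites with up to 3 sites each flagged everywhere or of widest range. Other genes and sites in the text were picked after their values were seen. From the list of other bZIP genes 6 genes matched by prefix that are not bZIP genes were dropped. Some bZIP genes are not analysed here. Intervals cover counting error only. Promoter and protein sequences were not used here.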

Additional observations from a re-analysis of the deposited data

How the results depend on the processing

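Counts of bZIP genes called and the m6A summaries kept within 1.5 times their value or their spread in 92 of 95 alternatives. RAC sites alone left 222 of 380 counted sites and a 3′ UTR minus coding difference of 0.276, and a fraction of at least 0.1 in place of the flag gave 0.122; both differences kept their direction. Among the genes of largest change (up to 5 per direction and comparison), 397 values kept direction and call, 0 reversed and 1 was weaker. This was OsbZIP02 at 2 weeks against 8 days, which lost its call with a pseudocount of 0.1 (log2 -1.05, adjusted p = 0.0636). Picking genes by size of change favours stable values, and other changes of named genes were not in this count. For embryo against endosperm, OsbZIP20 turned direction with median-ratio scaling, and OsbZIP03, OsbZIP63 and OsbZIP79 lost their call. The alternatives also left out 1 library at a time, which leaves 1 library in a tissue, so their call counts are not listed. Replicate numbers were only shared: deviations of same-numbered libraries correlated between -0.201 and 0.236 over 28 tissue pairs. With the number as a replicate block, light against dark called 0 of 60 bZIP genes, against 3 of all 28562 genes. Embryo against endosperm called 42 (20034 of all genes) and 2-week against 8-day seedlings 41 (19440 of all genes). Flag leaf against 2-week seedlings called 43 (19433 of all genes), panicle against flag leaf 43 (21762 of all genes) and any difference 60 (28209 of all genes). Over all genes, light against dark gave 3 calls by limma and 41 by edgeR. With 2 libraries per tissue, small differences may be missed; pooled m6A fractions carry no error, and low depth limits sites of low genes.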

Other observations

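OsbZIP54, an untested gene chosen after its values were seen, had 6 listed 3′ UTR sites on chromosome 6 between positions 30567020 and 30567123, with depths of 24 to 98 in every tissue, although its input level was at most 0.492 TPM on average and its recovered reads at most 9 per library. The site at 30567044 (ggAtg) was flagged in all 8 tissues, with fractions of 0.256 in endosperm to 0.703 in 2-week seedlings. The source of the reads behind these depths was not tested. Sites of widest spread at a depth of at least 50 in all tissues were mostly outside RAC and GAT contexts: the coding site of OsbZIP68 at position 27238071 of chromosome 8 (ccAgt) had a fraction of 1 in endosperm and 8-day seedlings and 0 in panicle, flag leaf and 2-week seedlings, and was flagged in 1 tissue. The coding site of OsbZIP60 at position 26810650 of chromosome 7 (ttAgc) was flagged in 4 tissues, with 1 in dark plumules, 0.896 in 8-day seedlings, 0.876 in embryo and 0.428 in endosperm, and had 0.177 to 0.494 in the others.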
